A study of Rattus norvegicus with 6 samples.

Results

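The liver's response to a high protein diet was compared with that to a normal protein diet at 3 settings of sucrose and fat. All 6 arrays of the study enter, as 3 high protein (HP) arrays against 3 normal protein (NP) arrays, and each HP array was paired with the NP array of the same background. The backgrounds were low fat (LF, arrays NP and HP), high sucrose (HS, arrays NP-HS and HP-HS) and sucrose plus fat, both high (HS-HF, arrays NP-HS-HF and HP-HS-HF). Values and differences are given below in that order, LF, HS and HS-HF, with NP before HP in each pair. Each array carried RNA pooled from the livers of 5 adult male Wistar rats, 30 rats in all, at 1500 ng per rat. All rats, controls included, first had 10 days on the normal protein diet. They then ate their own diet for 5 weeks, between 33 and 37 days by rat, and livers were taken 2 h after they received a test meal of fixed energy (87.6 kJ). A pool hides the spread between its rats, and no diet has a replicate pool, so the spread available is that of the protein difference over the 3 backgrounds. The number of arrays limits the precision. One label field (source) speaks of mice, whereas organism and protocol say rat.

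A liver that receives more protein than it needs for synthesis moves the amino groups of the surplus amino acids onto a few carriers, turns the nitrogen into urea and sends the carbon skeletons into glucose, ketone bodies or oxidation. Aminotransferases, dehydratases and the glycine cleavage system start this breakdown, and the urea cycle ends it. When protein replaces carbohydrate, less glucose and insulin reach the liver after a meal, and the enzymes of glycolysis and of fatty acid synthesis are known to be expressed at lower levels in such a state.

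The arrays held 29214 probe sets, and 20450 of them, with a mean above log2 5.14, were tested. All values are log2 expression, so a difference of 1 is a doubling, and values of different genes cannot be set against each other. Array medians lay between 6.216 and 6.248 and pairwise correlations between 0.9949 and 0.9964. The hepatocyte markers Alb, Ttr, Apoa1, Serpina1, Tf and Hnf4a lay between 11.7 and 13.85 on every array, whereas 7 markers of adipose tissue, pancreas and muscle reached at most 7.40. Most genes moved little with protein: the median absolute mean of the 3 paired differences was 0.0639 and the median of their SD 0.121. A mean difference of 1.5-fold or more was found for 71 probe sets higher and 36 lower with high protein, and of 2-fold or more for 7 higher and 6 lower.

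With high protein, 5 genes rose and 4 fell past the test in limma (Benjamini-Hochberg adjusted p under 0.05 over the 20450 probe sets), which is 0.044% of those tested, 0.0244% higher and 0.0196% lower. Both carbonic anhydrases Car12 and Car2, the ubiquitin ligase receptor Spsb4, the membrane protein Plppr1 and the adhesion receptor Pvr rose by 1.77-fold to 3.66-fold. The pantetheinase Vnn1, the activin subunit Inhba, the galactosyltransferase B3galt1 and the organic anion transporter Slco1a4 fell by 1.72-fold to 2.4-fold. For each of the 9 genes the 3 HP arrays and the 3 NP arrays did not overlap, as was so for 7.35% of all probe sets tested with HP above NP and for 7.58% with HP below NP. Protein level took between 87 and 98.4 percent of the sum of squares of these genes over the 6 arrays, where the median over all probe sets was 16.1 percent. The 9 genes were called on these same arrays, so non-overlap and a high share follow largely from that choice and add no support. The count of 9 depends on the setting. With each array centred on its median, limma called 12 higher and 4 lower, the 9 genes among them. Without the LF pair or without the HS pair limma called 0 (1966 and 1266 at an unadjusted p under 0.05), and without the HS-HF pair it called 48.

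**Figure D1:**
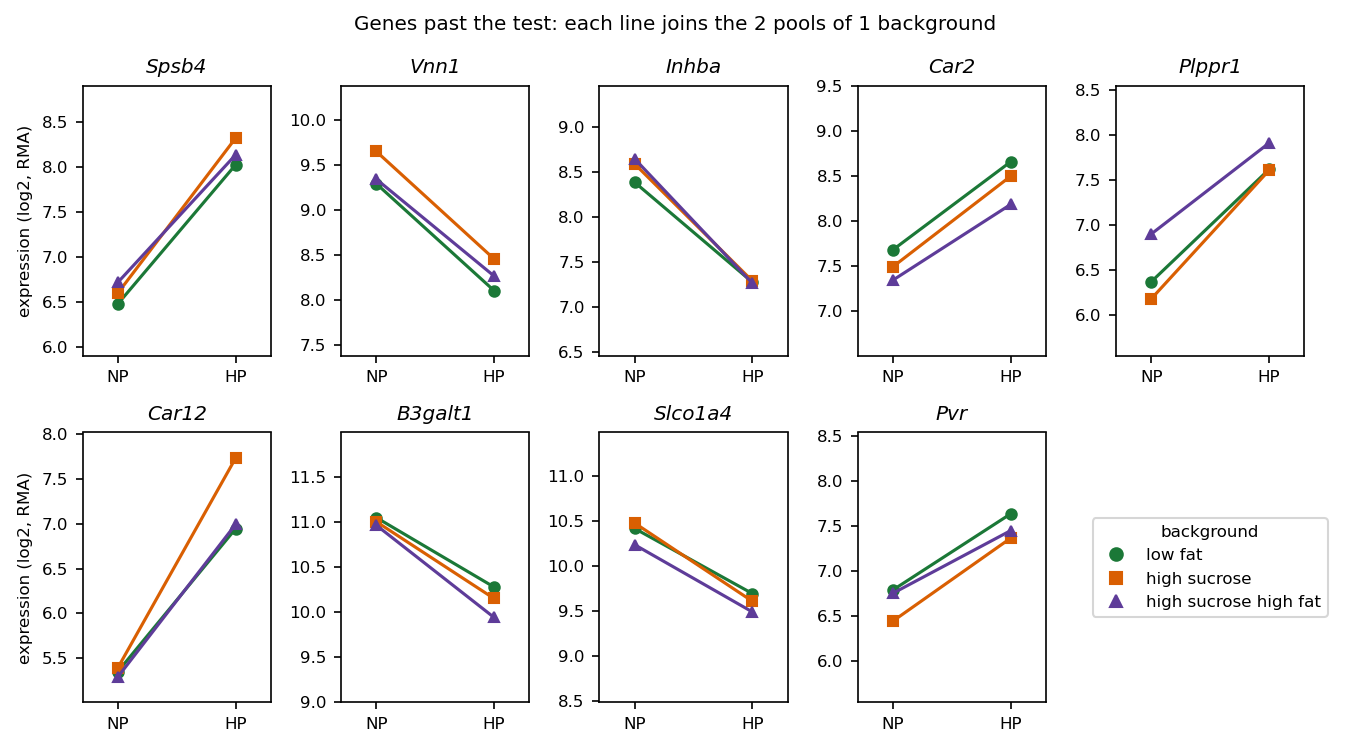
Expression (log2, RMA) of the 9 genes past the test on the 6 arrays, normal protein (NP) at left and high protein (HP) at right of each panel; a line joins both pools of 1 background and each panel spans its own range of 3 log2 units. The 3 lines of a gene run the same way, and the 3 HP points lie wholly above or wholly below the 3 NP points.

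Upstream sequences are shown for 4 of the 9 genes as examples, not as a comparison of genes that rose with genes that fell. Car12 and Spsb4 rose most, and Inhba and Slco1a4 are 2 of the 4 that fell. They are the 250 bases before the gene's start in RefSeq's annotation of GRCr8, on the gene's own strand, 5′ to 3′. Capitals mark matches to 6 short motifs, searched on both strands: the cAMP response element TGACGTCA, the sterol response element TCACNCCAC, the E-box CACGTG, the CCAAT box CCAAT, the STAT site TTCNNNGAA and the amino acid response element TGATGNAA. Overlapping matches were each counted.
Car12, chr8:76169565-76169814, plus strand: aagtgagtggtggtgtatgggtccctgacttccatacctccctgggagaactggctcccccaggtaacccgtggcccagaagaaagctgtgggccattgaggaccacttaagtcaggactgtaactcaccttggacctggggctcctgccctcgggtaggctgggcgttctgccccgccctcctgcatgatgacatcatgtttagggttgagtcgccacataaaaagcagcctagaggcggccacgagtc
Spsb4, chr8:106489272-106489521, minus strand: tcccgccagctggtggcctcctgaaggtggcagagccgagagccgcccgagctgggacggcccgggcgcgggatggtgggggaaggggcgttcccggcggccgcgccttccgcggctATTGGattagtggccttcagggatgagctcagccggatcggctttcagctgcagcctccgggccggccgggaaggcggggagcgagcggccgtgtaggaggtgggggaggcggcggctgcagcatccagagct
Inhba, chr17:53804509-53804758, minus strand: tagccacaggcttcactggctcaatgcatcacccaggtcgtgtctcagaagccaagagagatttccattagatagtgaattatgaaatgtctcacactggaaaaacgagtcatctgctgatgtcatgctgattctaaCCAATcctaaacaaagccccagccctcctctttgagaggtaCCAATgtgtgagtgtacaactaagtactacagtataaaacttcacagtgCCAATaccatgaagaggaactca
Slco1a4, chr4:176495847-176496096, minus strand: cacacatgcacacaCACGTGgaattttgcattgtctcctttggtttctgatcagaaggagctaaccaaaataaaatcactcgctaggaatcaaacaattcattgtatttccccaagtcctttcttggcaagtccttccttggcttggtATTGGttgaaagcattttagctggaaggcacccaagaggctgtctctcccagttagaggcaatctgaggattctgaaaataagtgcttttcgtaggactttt
The Inhba window holds 3 CCAAT boxes, at 113, 72 and 23 bases before the start, the Spsb4 window holds 1 on the opposite strand, and the Slco1a4 window holds an E-box and 1 CCAAT box. No match to the 6 motifs lies in the Car12 window, nor in that of B3galt1, which fell more than Slco1a4 and is not printed. Among the genes past the test, CCAAT boxes and E-boxes in these 250 bases were found only in printed windows. Base composition differs widely among them, with 72.8 percent G and C upstream of Spsb4 and 42.4 percent upstream of Slco1a4. A window was found for 7 of the 9 genes. Counted over 300 bases, from 250 before to 50 after the start, 3 of the 7 held a CCAAT box (42.9 percent, against 37.7 percent of all 27457 windows), 1 an E-box (14.3 against 6.65 percent) and 1 a STAT site (14.3 against 8.68 percent). The cAMP, sterol and amino acid response elements were in 0 of 7, and in 1.91, 1.13 and 3.82 percent of all windows. These matches describe letters and do not show that a factor binds there.

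Carbonic anhydrases interconvert carbon dioxide and bicarbonate, which feeds the first step of the urea cycle in mitochondria, and Car12 is the form anchored at the outer face of the cell membrane. Car12 stood at 5.36 on NP and 6.94 on HP, at 5.40 on NP-HS and 7.73 on HP-HS, and at 5.30 on NP-HS-HF and 6.99 on HP-HS-HF. Its NP arrays lay close together, near the lower limit of tested levels, and the HP-HS array was the highest. Car12 rose 3.66-fold (mean difference 1.87, SD 0.40 over 3 pairs, SE 0.145 from the fit, limma adjusted p = 0.0281). Car2, the abundant cytosolic form of many tissues, stood at 7.68 and 8.66 in LF, 7.50 and 8.50 in HS, and 7.35 and 8.19 in HS-HF. Both protein groups had their lowest level in HS-HF, and the lowest HP array was above the highest NP array. Car2 rose 1.92-fold (mean difference 0.94, SD 0.09, SE 0.0695, limma adjusted p = 0.0281). Among 19 tested genes of carbonic anhydrases and bicarbonate transport, 2 rose, these 2, and 0 fell. The others went both ways: Car5a, the mitochondrial form of liver that supplies bicarbonate to urea synthesis, was higher by 0.40 with an SD of only 0.04 (adjusted p = 0.149), while Car5b was at -0.39 and Car6 at -0.23. The list's median was -0.02, with 6 members higher and 13 lower, beside a median of -0.0014 with 10100 higher and 10350 lower over all probe sets tested.

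Vnn1 encodes vanin 1, a membrane pantetheinase that recycles vitamin B5 from coenzyme A breakdown and is a known target of the fatty acid receptor PPAR alpha. It stood at 9.29 on NP and 8.11 on HP, at 9.65 on NP-HS and 8.46 on HP-HS, and at 9.34 on NP-HS-HF and 8.27 on HP-HS-HF. The drop was nearly the same in each background, with the smallest SD of the 9 genes. Vnn1 fell 2.23-fold (mean difference -1.15, SD 0.07, SE 0.0669, limma adjusted p = 0.0137). Of the 10 tested genes of coenzyme A metabolism Vnn1 was the 1 below an unadjusted p of 0.05. Over all probe sets 4.68% were higher and 4.03% lower at that level, so this count says little about the list. Pank3, a pantothenate kinase, had the lowest mean among the others, -0.18, and Ppcs, the next enzyme, the highest, 0.20. Of 28 tested PPAR alpha targets and fatty acid oxidation genes, Vnn1 alone passed the test. A further member, Decr1, the mitochondrial dienoyl-CoA reductase, stood at 9.97 and 9.51, 10.04 and 9.62, and 9.79 and 9.38, NP first, with differences of -0.46, -0.42 and -0.41 (adjusted p = 0.124). Fgf21, a liver hormone known to respond to low protein and to fasting, was at -0.73, -0.52 and -0.24, and Cpt1a, the gate enzyme of fatty acid entry into mitochondria, at 0.15, 0.21 and 0.29. The list held 11 members higher and 17 lower, with medians of -0.13, -0.04 and 0.07 in the 3 backgrounds.

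Inhba encodes the subunit that forms activin A, a growth-restraining ligand of the TGF beta family. Its 3 NP arrays were at 8.38, 8.59 and 8.64 and its 3 HP arrays at 7.27, 7.28 and 7.26. The HP arrays were nearly equal, and the NP arrays differed more. Inhba fell 2.4-fold (mean difference -1.27, SD 0.14, SE 0.0778, limma adjusted p = 0.0137). Of 22 tested genes of the family, 1 fell, Inhba, and 0 rose, with 7 members higher and 15 lower and a median of -0.04. Inhbc, the activin subunit typical of hepatocytes, differed by -0.19, -0.36 and -0.18 (adjusted p = 0.419), Bambi, a decoy receptor, by -0.18, -0.18 and -0.10, and the receptor Acvr1 by -0.01, -0.29 and -0.26.

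Spsb4, a SOCS box protein that brings substrates to ubiquitin ligases, stood at 6.48 and 8.03, 6.60 and 8.33, and 6.72 and 8.14, all HP arrays above all NP arrays. It had the lowest p of all probe sets. Spsb4 rose 2.95-fold (mean difference 1.56, SD 0.15, SE 0.0805, limma adjusted p = 0.0135). Plppr1, a membrane protein related to lipid phosphatases and best known from neurons, stood at 6.37 and 7.62, 6.18 and 7.61, and 6.90 and 7.91. Its NP-HS-HF array was the highest of the NP arrays and the HP-HS-HF array the highest of the HP arrays. Plppr1 rose 2.34-fold (mean difference 1.23, SD 0.21, SE 0.0927, limma adjusted p = 0.0281). Pvr, a nectin-like receptor that binds ligands on lymphocytes and takes part in cell adhesion, stood at 6.79 and 7.63, 6.44 and 7.36, and 6.75 and 7.45. Its difference was smallest in HS-HF. Pvr rose 1.77-fold (mean difference 0.82, SD 0.11, SE 0.0735, limma adjusted p = 0.0459) and kept its call in 6 of 12 other settings, the fewest of the 9 genes.

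B3galt1, which adds galactose to sugar chains, was at 11.05, 11.01 and 10.97 on the NP arrays and at 10.28, 10.15 and 9.94 on the HP arrays. The NP values lay close together and the HP-HS-HF array was the lowest. B3galt1 fell 1.85-fold (mean difference -0.88, SD 0.13, SE 0.0759, limma adjusted p = 0.0452). Slco1a4, a sinusoidal transporter that takes up bile salts, steroids and drugs, stood at 10.42 and 9.70, 10.48 and 9.61, and 10.24 and 9.49. The 3 differences, -0.72, -0.87 and -0.75, were close to each other. Slco1a4 fell 1.72-fold (mean difference -0.78, SD 0.08, SE 0.0682, limma adjusted p = 0.0452), and its family holds near relatives with which a probe set may share signal.

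**Figure D2:**
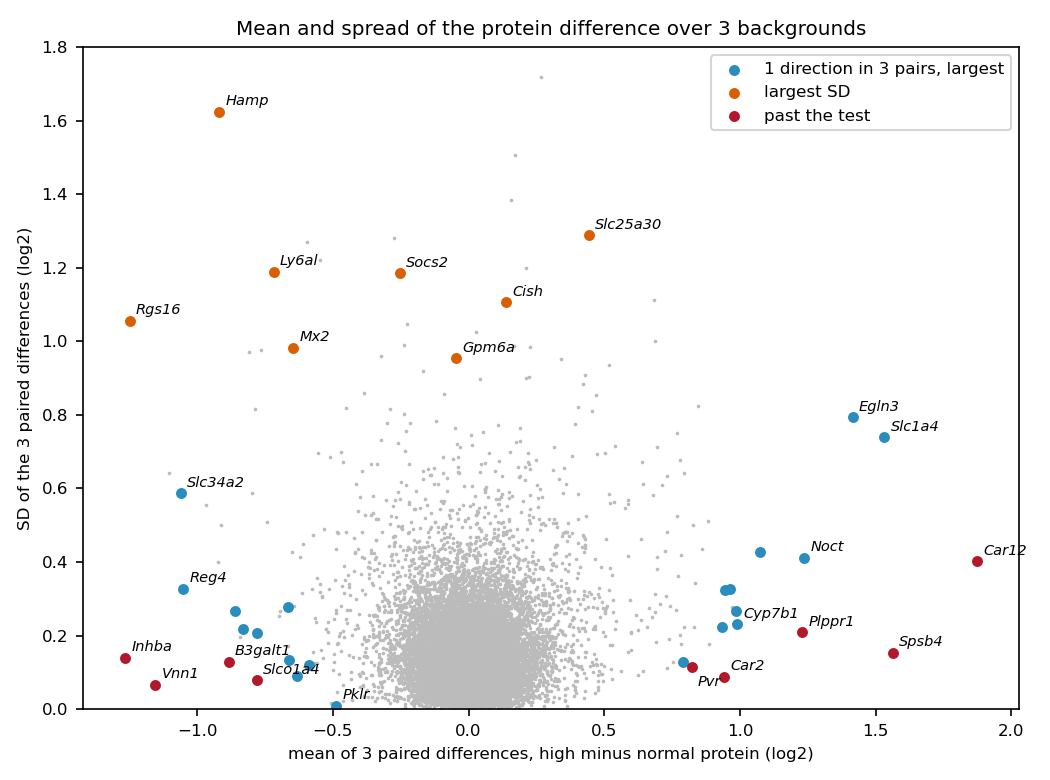
Mean (x axis, log2) against SD (y axis, log2) of the 3 paired differences, high minus normal protein, for the 20450 probe sets tested; red marks the 9 genes past the test, blue the other genes with the largest difference in 1 direction in all 3 pairs and orange the named genes with the largest SD. Most points lie near a mean of 0, Slc1a4 and Egln3 combine a large mean with an SD above 0.7, and Hamp has the largest SD of a named gene, 1.62.

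A difference of 1.5-fold or more in the same direction in all 3 pairs was found for 33 probe sets, 23 higher (0.112% of those tested) and 10 lower (0.0489%), of which 26 stand for a named gene. At 1.2-fold the count was 227. Of the 26 genes, 18 were higher and 8 lower, and the 9 genes past the test are among them. The other 17 did not pass over all probe sets. When the 11421 named genes were tested alone, with 1 probe set each, 59 passed (0.517%), 40 higher (0.35%) and 19 lower (0.166%), and all 9 genes were among them. For a gene below, "past the test among named genes" refers to that second test, and its adjusted p is from limma and Benjamini-Hochberg as well. Leaving out the unnamed probe sets changes both the number of tests and the spread that limma borrows from other probe sets.

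After Car12 and Spsb4, Slc1a4 and Egln3 had the largest means among genes higher in all 3 pairs, and in both the HS-HF pair was the widest. Slc1a4, a transporter of serine, alanine and other neutral amino acids, stood at 6.61 and 7.76, 6.69 and 7.75, and 6.63 and 9.01. Its NP arrays were nearly equal, and the HP-HS-HF array was far above the other HP arrays, so its SD was 0.74 and the adjusted p 0.145, and 0.0497 among named genes. Egln3, a prolyl hydroxylase of the hypoxia pathway and itself a hypoxia-inducible gene, stood at 6.18 and 7.09, 6.30 and 7.31, and 6.50 and 8.83 (mean 1.41, SD 0.79, adjusted p = 0.185). Both groups of Egln3 did not overlap either. Noct, nocturnin, a phosphatase of nicotinamide cofactors with a daily rhythm, showed another order, with 8.47 and 9.66, 8.21 and 9.87, and 8.65 and 9.50. Its difference was widest in HS, where the NP array was the lowest and the HP array the highest of the 6 (mean 1.24, SD 0.41, adjusted p = 0.0783, and 0.0189 among named genes).

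Cyp7b1, the hydroxylase of oxysterols in the alternative route of bile acid synthesis, stood at 7.41 and 8.22, 6.91 and 7.83, and 6.96 and 8.21 (mean 0.99, SD 0.23, adjusted p = 0.0594, and 0.011 among named genes). The lowest HP array was above the highest NP array. Slc1a2, a glutamate transporter found in pericentral hepatocytes, stood at 9.49 and 10.59, 9.57 and 10.59, and 10.14 and 10.82, with the narrowest pair in HS-HF, where the NP array was high (mean 0.93, adjusted p = 0.064). Adh6, an alcohol dehydrogenase with close relatives, stood at 7.95 and 8.62, 7.90 and 8.67, and 8.24 and 9.17 (mean 0.79, adjusted p = 0.0594). Wsb1 and Trim36 are, like Spsb4, parts of ubiquitin ligases. Wsb1 stood at 8.69 and 9.38, 8.59 and 9.66, and 8.52 and 9.72, and Trim36 at 6.86 and 7.61, 6.36 and 7.68, and 6.26 and 7.03, both past the test among named genes (adjusted p = 0.0164 and 0.0256). Mcm10, a DNA replication factor, stood at 8.51 and 10.02, 8.39 and 9.46, and 9.15 and 9.80 (adjusted p = 0.115), while 13 of 17 tested cell division genes were lower and its list had a median of -0.05; Tyms, which makes thymidylate, was at -0.26, -0.32 and -0.38.

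Genes that were lower in all 3 pairs without passing over all probe sets included enzymes of steroid and prostanoid synthesis. Cyp17a1, the steroid hydroxylase and lyase, stood at 9.34 and 8.54, 9.27 and 8.64, and 9.38 and 8.32 (mean -0.83, SD 0.22, adjusted p = 0.0775, and 0.0189 among named genes). Ptgis, prostacyclin synthase, had differences of -0.73, -0.53 and -0.51 (adjusted p = 0.0916), while its other probe set was at -0.29, 0.14 and -0.51. The NP and HP groups of Cyp17a1 did not overlap. Reg4, a secreted lectin, stood at 6.79 and 6.09, 6.96 and 5.83, and 6.84 and 5.51 (mean -1.05, SD 0.33, adjusted p = 0.0783). Arrdc3, an arrestin-related protein of receptor trafficking, stood at 12.03 and 11.38, 12.07 and 10.91, and 12.05 and 11.28 (mean -0.86, adjusted p = 0.0916). In Arrdc3 the NP arrays were nearly equal and the HP-HS array was the lowest. Nuak1, a kinase related to AMPK, differed by -0.62, -0.71 and -1.01. The phosphate transporter Slc34a2 differed by -1.66, -1.05 and -0.48, and the calcium-binding Cib2 by -0.45, -0.57 and -0.98. Slc34a2 and Cib2 thus ran in opposite orders over the backgrounds.

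**Figure D3:**
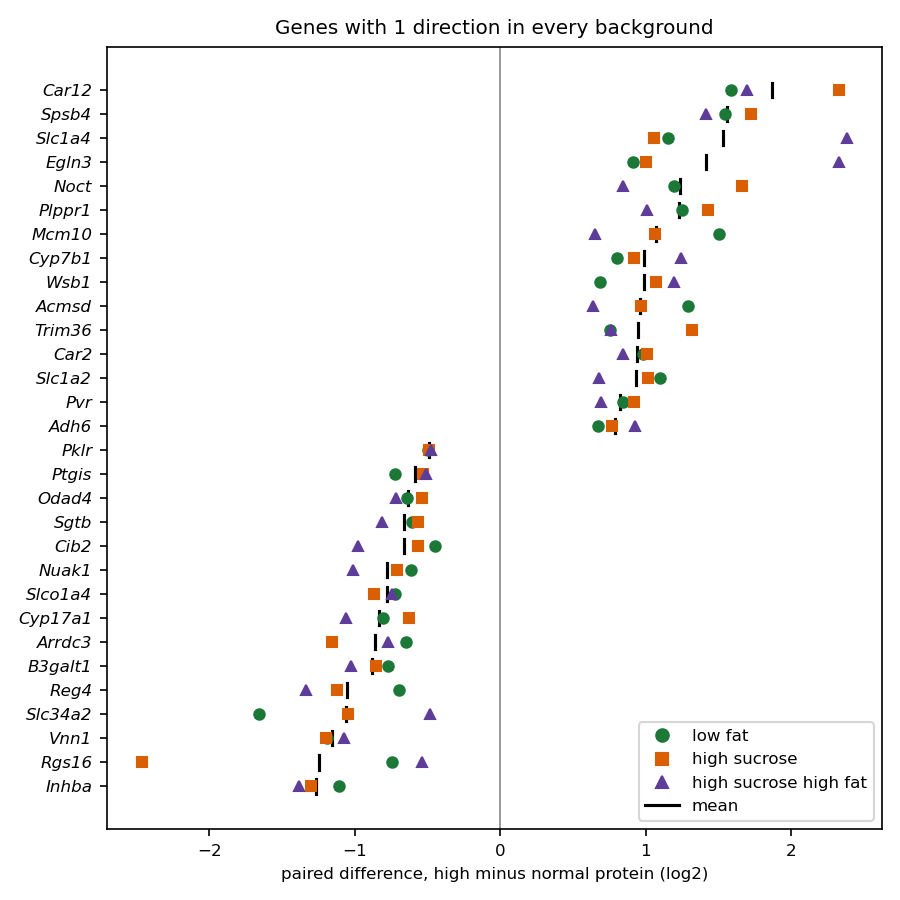
Paired differences (log2, high minus normal protein) of the 30 named genes with the largest difference in 1 direction in all 3 pairs, 15 higher and 15 lower; circles are LF, squares HS, triangles HS-HF, and the bar is the mean. Pklr has its 3 points on top of each other near -0.49, whereas Slc1a4, Egln3, Rgs16 and Slc34a2 spread over more than 1 log2 unit.

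Pklr, the liver pyruvate kinase that ends glycolysis, had the smallest SD of any gene named here. It stood at 10.62 and 10.13, 10.46 and 9.97, and 10.22 and 9.74. Both groups were highest in LF and lowest in HS-HF, and the step between them was -0.49, -0.49 and -0.48 (SD 0.0093, adjusted p = 0.0941, and 0.0287 among named genes). Of 21 tested genes of glucose and fructose use, 8 were higher and 13 lower with a median of -0.05, 0 passed the test, and at an unadjusted p under 0.05 2 were higher and 4 lower, where over all probe sets 4.68% were higher and 4.03% lower at that level. Txnip, a glucose-responsive inhibitor of glucose uptake, was at -0.52, -0.38 and -0.10 and Gckr, the regulator of glucokinase, at -0.42, -0.33 and -0.11. In both genes the difference was smallest in HS-HF. Aldoa, the glycolytic aldolase of muscle type, was higher, at 0.08, 0.28 and 0.66.

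Breakdown of amino acids gave 35 of 47 tested genes higher and 12 lower, with a median of 0.05 and 0 genes past the test over all probe sets. In all 3 pairs 20 were higher and 4 lower, where over all probe sets 14.6% were higher and 14.9% lower in this way. At an unadjusted p under 0.05, 14 were higher and 1 lower, beside 4.68% and 4.03% of all probe sets. The HP arrays were all above the NP arrays in 17 genes and all below in 2, beside 7.35% and 7.58%. Got1, the cytosolic aspartate aminotransferase, stood at 11.17 and 11.81, 11.13 and 12.02, and 11.10 and 11.64 (mean 0.69, SD 0.18, adjusted p = 0.0916, and 0.0254 among named genes). Gpt, the alanine aminotransferase, stood at 9.26 and 9.69, 9.31 and 9.88, and 9.36 and 9.80 (mean 0.48, SD 0.08). Gldc, the decarboxylase of glycine cleavage, stood at 8.82 and 9.36, 8.79 and 9.25, and 9.08 and 9.84 (mean 0.59, SD 0.15). These 3 enzymes had HP arrays wholly above NP arrays, and with Acmsd they are the 4 members past the test among named genes. Acmsd diverts the tryptophan pathway from nicotinamide synthesis towards oxidation; it stood at 7.73 and 9.02, 8.20 and 9.16, and 8.32 and 8.96. Its NP level was lowest in LF, where the difference, 1.29, was the widest (adjusted p = 0.0916). Csad, which makes taurine from cysteine, was the 1 member lower at an unadjusted p under 0.05; it was at -0.25, -0.84 and -0.76. HP-HS was the array with the highest value for 24 of the 47 genes, and over all probe sets it was so for 3060 of 20450.

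Disposal of nitrogen also had more members higher than lower. Of 12 tested genes of the urea cycle and ammonia, 10 were higher and 2 lower, with a median of 0.13 and 0 past the test. In all 3 pairs 7 were higher and 0 lower, beside 14.6% and 14.9% of all probe sets. The cycle's enzymes Cps1, Otc, Ass1 and Arg1 moved little, with means of 0.04, -0.09, 0.12 and 0.05. Asl, argininosuccinate lyase, stood at 10.91 and 11.30, 10.77 and 11.35, and 10.97 and 11.46 (mean 0.49, SD 0.09, adjusted p = 0.118, and 0.0379 among named genes). Car5a stood at 7.79 and 8.16, 7.67 and 8.12, and 7.91 and 8.28, and the ammonium channel Rhbg was higher by 0.44, 0.31 and 0.21. For Asl and Car5a all HP arrays were above all NP arrays, and for Rhbg the NP-HS-HF array at 7.39 was above HP at 7.30. In HS-HF the list's median was 0.02, beside 0.26 in LF and 0.21 in HS.

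Carriers bring amino acids into the cell and metabolites into mitochondria. Of 24 tested amino acid transporters, 18 were higher and 6 lower, 8 higher and 1 lower in all 3 pairs, with a median of 0.07. Over all probe sets 14.6% were higher and 14.9% lower in all 3 pairs. After Slc1a4 and Slc1a2 came Slc16a10, an aromatic amino acid transporter, with 9.68 and 10.49, 9.50 and 10.50, and 9.79 and 10.06. Slc6a9, a glycine transporter, was lower, with 9.65 and 9.37, 9.75 and 9.18, and 9.46 and 8.99 (mean -0.44, SD 0.15, adjusted p = 0.169). Its groups did not overlap. Among 28 tested mitochondrial carriers 17 were higher and 11 lower, 12 higher and 5 lower in all 3 pairs, and 9 had HP arrays wholly above NP arrays against 1 wholly below, beside 7.35% and 7.58% of all probe sets. Slc25a21, the carrier of oxodicarboxylates from lysine and tryptophan breakdown, stood at 6.35 and 7.29, 6.79 and 7.37, and 6.61 and 7.43 (mean 0.78, adjusted p = 0.0756). The glutamate carrier Slc25a22 stood at 9.98 and 10.39, 9.75 and 10.35, and 10.01 and 10.44 (mean 0.48, SD 0.10). Both were past the test among named genes (adjusted p = 0.0164 and 0.0409). Slc25a25, a carrier of ATP and magnesium, varied more, with 9.55 and 9.97, 8.68 and 10.11, and 9.29 and 10.08, the low value on NP-HS giving the widest pair.

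Gluconeogenesis held members in both directions. Of 19 tested members 10 were higher and 9 lower, with a median of 0.01. Pck1, phosphoenolpyruvate carboxykinase, stood at 12.11 and 12.45, 12.12 and 12.53, and 12.33 and 12.64 (mean 0.35, SD 0.06, adjusted p = 0.181). Gk, glycerol kinase, was lower, with 10.12 and 9.71, 10.12 and 9.76, and 10.07 and 9.73 (mean -0.37, SD 0.03, adjusted p = 0.162), and so was the pyruvate carboxylase Pc, at -0.21, -0.24 and -0.26. Sds, which turns serine into pyruvate, was higher by 0.59, 0.64 and 0.27. Each of these 4 genes had groups that did not overlap. Over the 19 members the HP arrays were wholly above the NP arrays in 7 and wholly below in 2. Among all probe sets this was so for 7.35% and 7.58%.

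**Figure D4:**
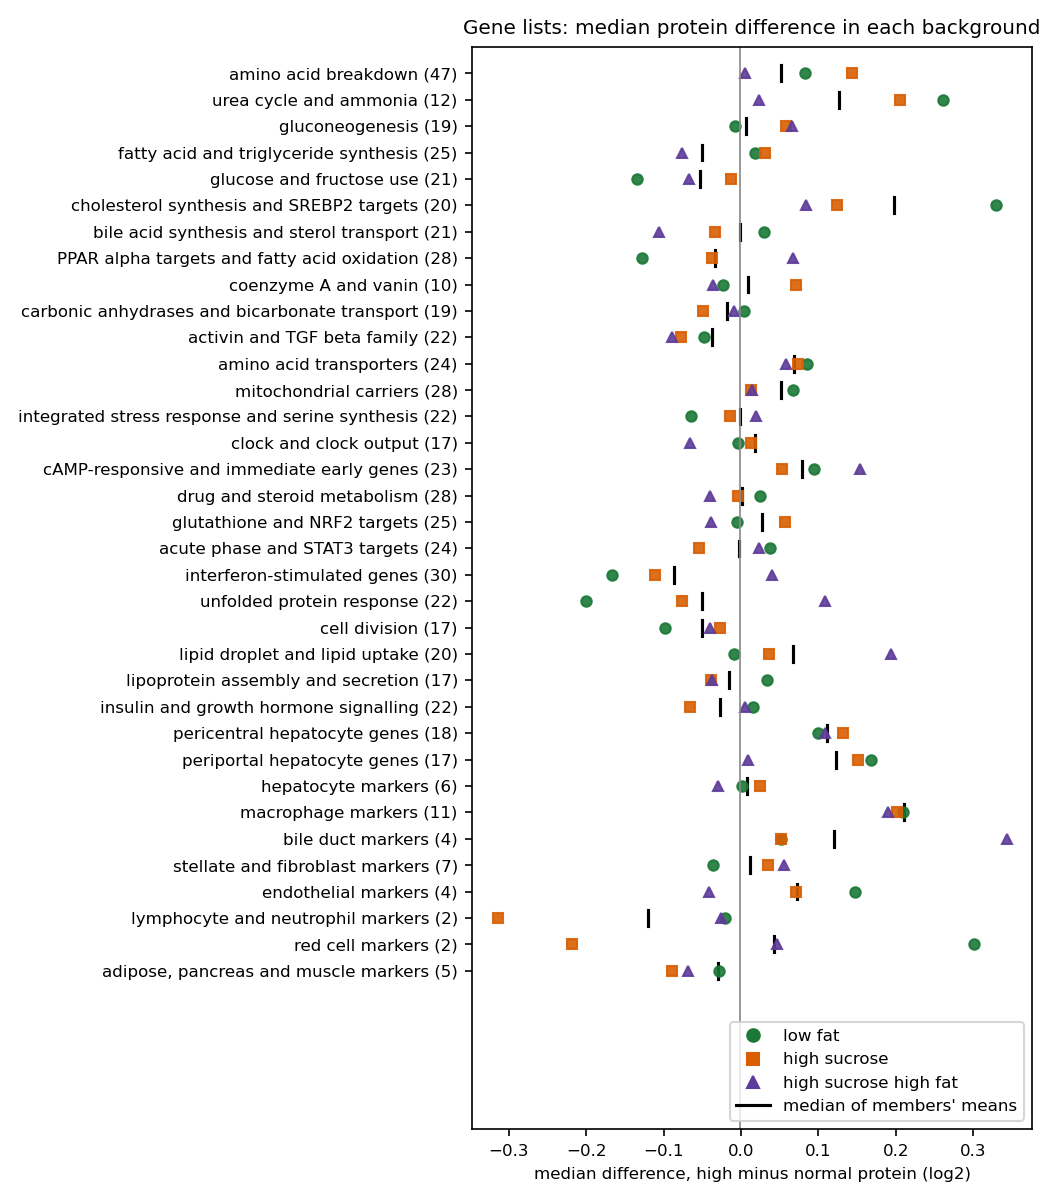
Median difference over the tested members of each gene list (log2, high minus normal protein), with the number of members in brackets; circles are LF, squares HS, triangles HS-HF, bars the median of the members' means over 3 pairs, and the line the median of all probe sets. Macrophage markers have their 3 points close together near 0.2, whereas interferon-stimulated genes and the unfolded protein response run from below 0 in LF to above 0 in HS-HF.

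Fatty acid and triglyceride synthesis held members in both directions. Me1, the malic enzyme that supplies reducing power, stood at 8.08 and 7.39, 8.21 and 7.64, and 7.89 and 7.45 (mean -0.57, SD 0.12, adjusted p = 0.104, and 0.0298 among named genes). Acaca, the acetyl-CoA carboxylase of lipogenesis, stood at 10.38 and 9.91, 10.32 and 9.98, and 10.24 and 9.49 (mean -0.52, SD 0.21). Scd, the stearoyl-CoA desaturase, stood at 12.79 and 11.74, 12.58 and 12.22, and 12.46 and 11.13 (mean -0.91, SD 0.50, adjusted p = 0.197). In these 3 genes the groups did not overlap, and Scd differed least in HS. Fasn, the fatty acid synthase, was also lower in each background, at -0.52, -0.17 and -0.33 (limma adjusted p = 0.337). Acly, which makes cytosolic acetyl-CoA, was lower by less, at -0.19, -0.18 and -0.07, with a mean of -0.15. Not all steps went this way: the citrate carrier Slc25a1 had a mean of 0.07. Acacb, the second acetyl-CoA carboxylase, differed by 0.50, 0.33 and -0.004. Of the 25 tested members 9 were higher and 16 lower with a median of -0.05, and 0 passed the test. At an unadjusted p under 0.05, 3 were higher and 5 lower, beside 4.68% and 4.03% of all probe sets. Elovl6 and Pnpla3 differed mainly in LF: Elovl6 stood at 9.44 on NP and 8.52 on HP but at 8.88 and 8.92 in HS and 8.72 and 8.75 in HS-HF, and Pnpla3 stood at 7.13 on NP and between 6.14 and 6.48 on the other 5 arrays. The NP array held the highest value of 11 of the 25 genes, 44 percent, where it did so for 17.1 percent of all probe sets.

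Genes of sterol synthesis were mostly higher. Of 20 tested members 17 were higher and 3 lower, and 0 past the test, with a median of 0.20. In all 3 pairs 14 were higher and 0 lower, beside 14.6% and 14.9% of all probe sets. At an unadjusted p under 0.05, 8 were higher and 0 lower, beside 4.68% and 4.03%. Sqle, squalene epoxidase, stood at 5.81 and 7.21, 6.66 and 7.11, and 6.89 and 7.52 (mean 0.83, SD 0.50, adjusted p = 0.242). Tm7sf2, a sterol reductase, stood at 7.82 and 8.90, 8.56 and 9.07, and 8.28 and 8.88, and Insig1, which holds the sterol sensor back, at 9.08 and 10.04, 9.13 and 10.04, and 9.73 and 9.95. In all 3 genes the HP arrays differed less among themselves than the NP arrays did. The NP array of LF was the lowest of the 6 for 14 of the 20 genes, 70 percent against 15.8 percent of all probe sets, and without the LF pair the median was 0.11. In RefSeq's windows 13 of 16 members held a CCAAT box (81.2 percent, against 37.7 percent of all windows). The other gene lists searched also held it more often than all windows. The shares were 65 percent for fatty acid and triglyceride synthesis, 60 for macrophage markers and 52.6 for amino acid breakdown. The sterol response element, searched only as TCACNCCAC, was in 0 of 16. As 1.13 percent of all windows hold it, 0 of 16 says little about such elements here.

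Bile acid genes did not move as a block, with 10 of 21 tested higher and 11 lower and a median of -0.001. Beside Slco1a4, which fell, and Cyp7b1, the repressor Nr0b2 stood at 10.10 and 9.41, 10.03 and 9.82, and 10.13 and 9.30 (mean -0.58, SD 0.33, adjusted p = 0.25). Nr0b2 encodes SHP, which acts below the bile acid receptor. That receptor, Nr1h4, was at -0.24, -0.42 and -0.13, and Cyp8b1, which sets the kind of bile acid made, at 0.21, 0.26 and 0.19. Of 20 tested lipid droplet and lipid uptake genes 14 were higher and 6 lower, with medians of -0.01, 0.04 and 0.19 in the 3 backgrounds. Lipe, the hormone-sensitive lipase, was higher by 0.24, 0.35 and 0.23, and G0s2, the inhibitor of the main triglyceride lipase, by 0.10, 0.47 and 0.58. Of 17 lipoprotein genes 5 were higher, with a median of -0.02.

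Signalling genes of the first hours after a stimulus were higher in 18 of 23 cases and lower in 5, with a median of 0.08, but the members with the largest means were lower. These were Rgs16, with a mean of -1.25, and Arrdc3, with a mean of -0.86. At 1.2-fold in all 3 pairs the list held 3 members higher and 3 lower, beside 130 and 97 of the 20450 probe sets tested. Plk3 and Arrdc3 are its members past the test among named genes, 1 in each direction. Plk3, a stress-responsive kinase, stood at 7.37 and 8.23, 7.23 and 8.16, and 7.39 and 7.95 (mean 0.78, SD 0.20, adjusted p = 0.0777, and 0.0189 among named genes). Pde4b, a phosphodiesterase induced by cAMP, stood at 6.42 and 7.13, 6.43 and 6.94, and 6.59 and 6.96, and Fos, an immediate early transcription factor, at 6.83 and 7.36, 6.49 and 7.05, and 6.87 and 7.18. All 3 genes had HP arrays wholly above NP arrays. Myc, the growth regulator, was lower, at -0.32, -0.33 and -0.27. Of 17 clock genes 3 were higher in all 3 pairs, Noct, Per2 and Nfil3, and 6 were lower in all 3. Among all probe sets 14.6% were higher and 14.9% lower in this way. Bhlhe40 was 1 of the lower genes, at -0.16, -0.40 and -0.07. Per2, a repressor of the core clock, was at 0.11, 0.28 and 0.16, and Nfil3, a repressor of clock output, at 0.14, 0.10 and 0.39. Among the targets of the integrated stress response, which amino acid shortage switches on, 11 of 22 were higher and 11 lower; Nupr1, a stress-response cofactor, was at -0.54, -0.33 and -0.82. Of 22 genes of insulin and growth hormone signalling 10 were higher and 12 lower, and Foxo3, a transcription factor restrained by insulin, was at -0.36, -0.33 and -0.43 (adjusted p = 0.163).

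Drug and steroid metabolism was divided evenly, with 14 of 28 tested genes higher and 14 lower and a median of 0.001. Cyp2b2, which barbiturates induce and whose sequence is close to that of Cyp2b1, stood at 10.36 and 9.08, 9.90 and 9.57, and 10.32 and 9.02. Aldh1a1, which makes retinoic acid, stood at 9.07 and 7.42, 8.53 and 8.14, and 8.96 and 7.69 (mean -1.10, SD 0.64, adjusted p = 0.209). Both genes shared an order, with a narrow pair in HS and wide pairs in LF and HS-HF. Among 25 glutathione and NRF2 target genes 13 were higher and 12 lower. The heme oxygenase Hmox1 was at 0.50, 0.16 and 0.71 and the metallothionein Mt1 at 0.83, 0.38 and 0.22, with its other probe set at 0.79, 0.39 and 0.20.

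Acute phase genes were higher in 11 of 24 cases and lower in 13, and Orm1, a plasma glycoprotein of that response, stood at 11.23 and 11.46, 11.17 and 11.60, and 11.22 and 11.70. In interferon and protein-folding genes single arrays stood apart. Of 30 tested interferon-stimulated genes 5 were higher and 25 lower, with a median of -0.09 and medians of -0.17, -0.11 and 0.04 in the 3 backgrounds, and 0 passed the test. The antiviral Mx2 stood at 9.03 on NP and between 6.91 and 7.33 on the other 5 arrays, and Ifit3, an RNA-binding antiviral gene, at 6.67 and 6.24, 6.21 and 6.10, and 6.04 and 5.92. The NP array of LF held the highest value for 19 of the 30 genes. Unfolded protein response genes showed the same feature, with 17 of 22 highest on that array, where it was the highest for 17.1 percent of all probe sets. The NP-HS-HF array was the lowest for 16 of the 30 and for 9 of the 22 genes, beside 3616 of 20450 probe sets. Derl3, which removes misfolded proteins, stood at 9.34 and 7.82, 8.64 and 7.72, and 7.77 and 7.87, and the chaperone Dnajc3 at 10.94 and 10.70, 10.89 and 10.61, and 10.82 and 10.69. Without the LF pair the median of the unfolded protein response was 0.01 in place of -0.05, and that of the interferon genes -0.04. The part of either array in these values was otherwise not tested.

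Markers of liver macrophages were higher with high protein in all 11 genes measured, with a median of 0.21 and 0 past the test. Of these, 10 were higher in all 3 pairs and 8 at an unadjusted p under 0.05, beside 14.6% and 4.68% of all probe sets. The phagocyte receptor Vsig4 stood at 8.60 and 8.81, 8.62 and 8.81, and 8.55 and 8.74 (mean 0.20, SD 0.01, adjusted p = 0.457). The surface receptor Adgre1 stood at 7.48 and 7.68, 7.54 and 7.78, and 7.35 and 7.58, and Cd5l, a secreted macrophage protein, at 7.22 and 7.74, 7.56 and 7.77, and 7.22 and 7.55. The HP arrays lay wholly above the NP arrays in 6 of the 11, Vsig4 and Adgre1 among them, beside 7.35% of all probe sets. For Cd5l the NP-HS array was above HP-HS-HF by a small step. Summed on the linear scale, the 11 markers reached 3804 to 4168 on the NP arrays and 4266 to 4896 on the HP arrays, and 0 of the 11 lay under the filter. Their part in the differences of other genes was not tested. In bulk liver, more macrophages and more RNA of these genes per macrophage cannot be told apart. Bile duct markers had a higher mean in 4 of 4 tested genes, 2 of them higher in all 3 pairs. Their medians were 0.05, 0.05 and 0.34 in the 3 backgrounds. Krt19, a keratin of bile duct cells, stood at 6.31 and 6.35, 6.16 and 6.45, and 6.04 and 6.49, while Spp1 was at -0.14, 0.04 and 0.31. Levels of the 5 bile duct markers measured reached at most 6.49, and 1 lay under the filter. Endothelial markers had a median of 0.07 and stellate and fibroblast markers of 0.01, while hepatocyte markers were at 0.01 with 3 higher and 3 lower. Of 6 lymphocyte and neutrophil markers 4 lay under the filter and the other 2 were lower. The red cell marker Hbb differed by 0.31, -0.26 and 0.10 and Alas2 by 0.29, -0.18 and -0.01, so neither kept 1 direction. Genes typical of pericentral hepatocytes were higher in 13 of 18 cases (median 0.11) and those of periportal hepatocytes in 12 of 17 (median 0.12). Tbx3, a pericentral transcription factor, stood at 8.11 and 8.68, 8.35 and 8.80, and 8.61 and 9.47 (mean 0.62, adjusted p = 0.128, and 0.0409 among named genes).

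Some genes differed with protein in 1 background more than in the others. Hamp, which encodes the iron hormone hepcidin, stood at 9.03 and 9.21 in LF, 9.72 and 6.94 in HS, and 9.34 and 9.20 in HS-HF. The HP-HS array alone was low. Rgs16, a brake on G protein signalling, was lower in all 3 pairs, with 11.51 and 10.76, 11.98 and 9.52, and 11.53 and 10.99, and the same array was again the lowest. Slc25a30, a mitochondrial carrier, stood at 8.52 and 8.15, 7.93 and 7.71, and 7.80 and 9.73, so the HP-HS-HF array was high. Pdk4, the kinase that shuts off pyruvate oxidation, showed the same feature, with 10.00 and 9.69, 9.68 and 9.54, and 10.27 and 11.29. Ly6al, a member of the Ly6 family, stood at 7.28 and 5.87, 6.15 and 4.75, and 5.34 and 5.99. Here the direction turned in HS-HF. With 1 array per diet such differences have no test, and the SD of the 3 differences, 1.62 for Hamp and 1.29 for Slc25a30, is given as a description.

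**Figure D5:**
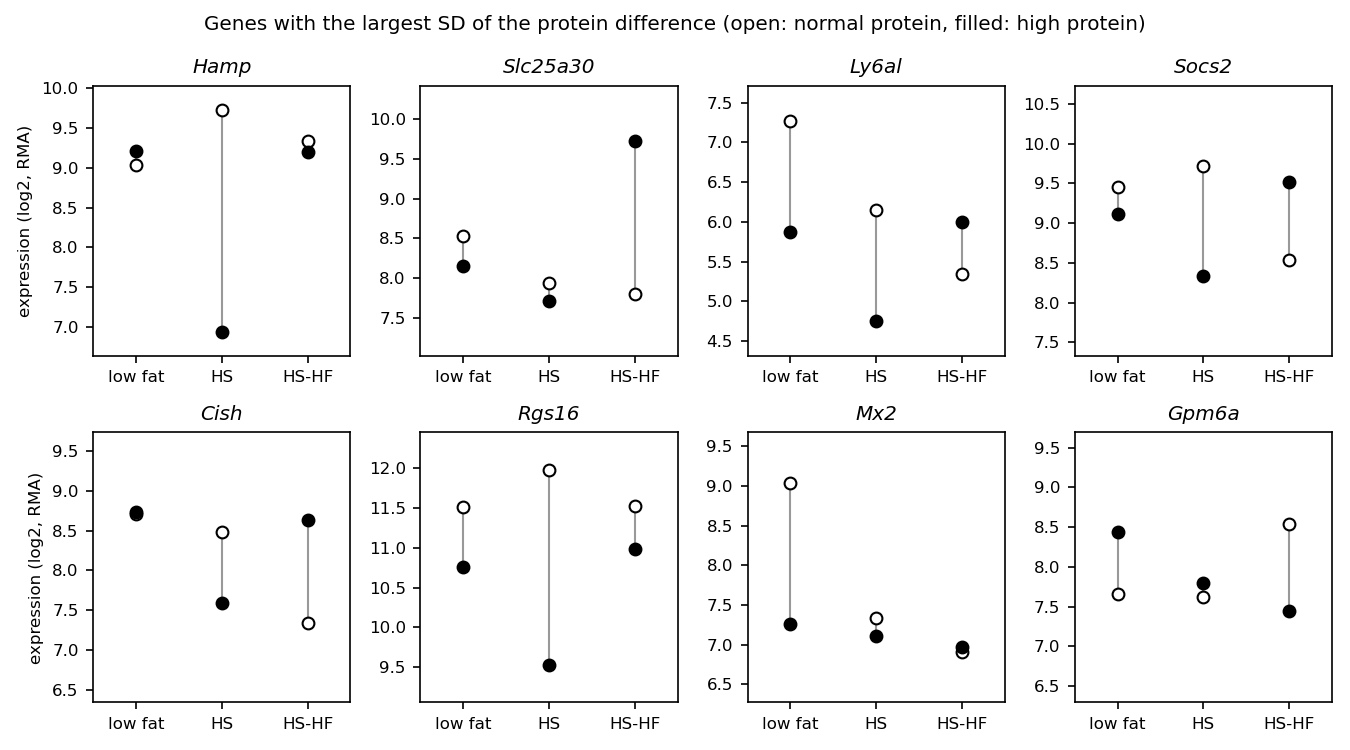
Expression (log2, RMA) of the 8 named genes with the largest SD of the protein difference in the LF, HS and HS-HF backgrounds; open circles are normal protein, filled circles high protein, 1 array each. Hamp and Rgs16 are lowest on the HP-HS array, Slc25a30 is highest on HP-HS-HF, and the order of the circles turns between backgrounds for Socs2, Cish, Ly6al and Gpm6a.

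The steady differences also included 7 probe sets with no gene name. The highest of them, by smallest paired difference, was probe set 10714830, at 6.79 and 7.60, 6.33 and 7.14, and 6.36 and 7.66, and 10934118 was lower, at 7.54 and 6.91, 7.70 and 6.83, and 7.77 and 6.75. Their groups did not overlap.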

How the data were processed

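The deposited values are log2 expression per probe set of a rat whole-transcript array, 1 array per pool; 100 ng of pooled RNA (RIN 7.0 or more) was labelled per array, per the labels, and the authors normalized the arrays with RMA, per the submitters' processing notes (version not given in the sources used here). Gene names came from the platform annotation: 15310 probe sets have 1 symbol, 323 have several and 13581 are unlisted. Probe sets with a mean above the 30th percentile (log2 5.14) were fitted in limma 3.58.1 (R 4.3.3) as protein plus background, which pairs the arrays by background, with Benjamini-Hochberg adjustment over 20450 probe sets. There were 2 residual degrees of freedom, with a prior of 4.37 and a prior SD of 0.0937, so an interaction of protein with background could not be fitted. Tables were made in Python 3.11.15 with pandas 2.3.3 and numpy 2.4.6. The scripts were tested on simulated data.

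A gene is its probe set with the highest mean. The text names genes past the test, up to 15 per direction with the largest smallest paired difference, 8 with the largest SD, and up to 4 per list by moderated t, with marker genes. Acacb, Acly, Arg1, Ass1, Car6, Cps1, Csad, Elovl6, Fasn, Myc, Nr1h4, Otc, Slc25a1, Pc, Pdk4, Pnpla3 and Vsig4 fall outside this rule. They were chosen after their values were seen. The members and the 35 gene lists (617 genes measured) were chosen with earlier results of these data known. With 1 pool per diet, p-values set the protein difference against its spread over these pairs, combined with a spread that limma borrows from other probe sets. That borrowed part has 4.37 degrees of freedom beside 2 residual ones. Pklr, with an SD of 0.0093, thus had an SE of 0.0634. The diets' composition was not used here. Probe sets of close relatives (Cyp2b2, Mt1, Adh6, Slco1a4) may share signal.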

Additional observations from a re-analysis of the deposited data

Results flagged for a closer look

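In 4 named genes the protein difference pointed in opposite directions, at 1.5-fold or more each way, in 2 backgrounds. The differences are given in the order low fat, HS and HS-HF, and the difference between backgrounds was not tested, since each diet has 1 array. Socs2, a feedback inhibitor of growth hormone signalling, differed by -0.34, -1.39 and 0.97, a range of 2.37. Cish, a related inhibitor that STAT5 induces, stood at 8.71 and 8.73, 8.49 and 7.59, and 7.34 and 8.64 (NP before HP), a range of 2.20 in its differences. Both genes were thus lower in HS and higher in HS-HF. Ly6al differed by -1.40, -1.41 and 0.65, a range of 2.06, and Gpm6a, a membrane glycoprotein, by 0.78, 0.17 and -1.09, a range of 1.87. Over all probe sets tested, 28 had such opposite pairs.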

How the results depend on the processing

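The count of 9 probe sets past the test was 3 with no filter on low values, 16 with arrays centred on their medians, 51 with an intensity trend in limma's prior and 59 with 1 probe set per named gene. It was 0 by an ordinary paired t on the 3 differences (1328 at an unadjusted p under 0.05, beside 1782 in limma). Leaving out 1 pair gave 0 to 48 calls: 0 without the low fat pair, 0 without the HS pair and 48 without the HS-HF pair. The fit with the 50th percentile filter called 13, another quantile normalization 7, a robust prior 9 and a fit with no background term 13. The 33 probe sets at 1.5-fold in all 3 pairs became 58 to 66 with 1 pair left out, since fewer pairs have to pass. Of 1763 values of 148 named genes over these settings, 0 reversed a call, 38 lost one and 79 gained one, and 15 genes had the other sign somewhere. Of 245 list medians 17 moved by more than the spread between pairs, and 13 of 35 lists had the other sign in some setting. The main design already pairs the arrays by background, and the labels give no replicate numbers that could serve as a further block. The number of arrays limits the precision.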
